A study of Mus musculus with 4 samples.

Results

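The EGR and NR4A transcription factors, *Ier2*, *Ier3*, *Ier5*, *Srf* and *Btg2* make up a set of 10 immediate-early genes, out of 21945 genes tested in NIH/3T3 cells after knockdown of *Setd2*. They were taken by gene symbol from the deposited transcript table, which holds 17 of their transcripts among 34200. The set was put together because *Egr1* stood out in the authors' own comparison of the same libraries, so nothing below is independent evidence about *Egr1*. The other members, too, were chosen with earlier results of these data known. NIH/3T3 is an immortalised line of mouse fibroblasts. The 2 knockdown (KD) libraries came from cells given a pair of *Setd2*-specific siRNAs together, and the 2 control (WT) libraries from cells given a Scrambled, non-targeting siRNA, in both cases at 10 nM and with RNA taken 48 h later. The labels do not say which transfection each library came from.

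Of each transcript, the mean and the variance over the 4 libraries together were analysed here. The columns that hold the authors' comparison of KD with WT were not used, and single libraries were not analysed, so no direction and no p-value is given for any gene. A level is the geometric mean over the 4 libraries, in estimated counts normalised for library size. A spread is the square root of the deposited variance, converted to log2 units. The spread holds the difference between KD and WT and the difference between the libraries of a group, and these cannot be told apart. It does set a limit, because KD and WT means of the log values cannot lie further apart than the variance over all 4 libraries allows. Fold limits below are therefore between geometric means. In bulk RNA, fewer cells with a transcript and less transcript per cell cannot be told apart either.

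Immediate-early genes are switched on within minutes by serum, growth factors or stress without the need for newly made protein. Many of them encode transcription factors, their promoters often carry CArG boxes bound by SRF or cAMP response elements (CRE) bound by CREB, and their mRNAs are usually short-lived, in part through AU-rich words in the 3′UTR. In cultured fibroblasts they are the classic response to serum.

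The labelled cell type was checked on its markers. All 7 fibroblast markers were in the table, from *Pdgfrb* with 570.1 to *S100a4* with 458932 normalised estimated counts per kb. These ranked above 70.6% and 99.9% of the 21607 genes whose level could be divided by transcript length. Of 8 markers of epithelium, leukocytes, endothelium and muscle, 6 were in the table, with 6.40 for *Ptprc* to 287 for *Cd68* on the same scale. *Cd68*, a macrophage marker, ranked above 59.9% of genes, which is higher than *Egr3* and *Egr2* among the members. *Epcam* and *Myod1* were not analysed here. *Setd2*, the targeted histone methyltransferase, had a level of 1844 normalised estimated counts and a spread of 1.15 log2 units, wider than 99.8% of the 1000 transcripts nearest to it in level. The targeted gene was not checked in single libraries.

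All 10 genes lay above the median of all ranked genes, protein-coding or not, which was 120.4 normalised estimated counts per kb. *Ier3*, whose product acts in cell survival under stress, was the highest with 5757 per kb and ranked above 96.4% of all genes. *Nr4a1* (2995 per kb) and *Ier2* (2327 per kb) ranked above 92.9% and 90.8% of genes. *Ier5*, *Egr1*, *Btg2* and *Srf* followed with 1800.1, 1565, 1343 and 885 per kb, and ranked above 88.4%, 86.8%, 84.6% and 78.0% of genes.

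*Nr4a2*, *Egr3* and *Egr2* were the low members, with 307, 229.9 and 149.7 normalised estimated counts per kb. *Egr2*, the lowest, ranked above 52.0% of all genes, and *Ier3* was 38.4 times as high per kb. Among the 14511 genes annotated as protein-coding, *Nr4a2*, *Egr3* and *Egr2* ranked above only 46.4%, 41.4% and 35.8%, below the median. Neighbours in the order of levels were set against the larger spread of each pair, where the spread is that of a gene's most abundant transcript. *Nr4a1* and *Ier2*, *Ier2* and *Ier5*, *Ier5* and *Egr1*, *Egr1* and *Btg2*, and *Egr3* and *Egr2* differed by less than that spread. The steps from *Ier3* to *Nr4a1* (1.92-fold), from *Btg2* to *Srf* (1.52-fold) and from *Srf* to *Nr4a2* (2.88-fold) were larger than it. The step from *Nr4a2* to *Egr3* was larger than it with all tested transcripts summed (1.34-fold) but not with the most abundant transcript alone (1.15-fold). These levels were measured 48 h after transfection, without a time course.

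**Figure D1:**
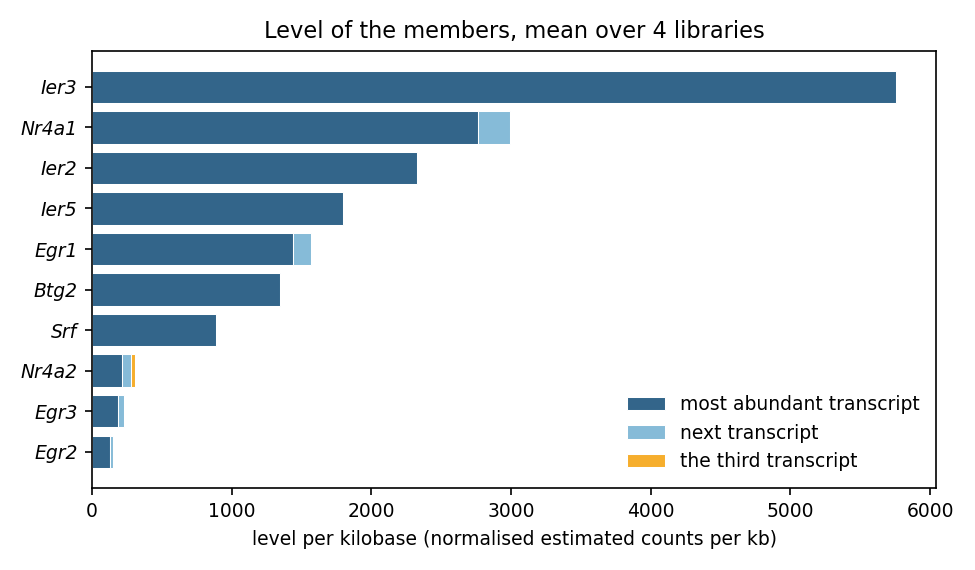
Level per kb of each member, from the geometric mean over the 4 libraries in normalised estimated counts. The tested transcripts of a gene are stacked in colour. *Ier3* reaches 5757 per kb, and *Nr4a2*, *Egr3* and *Egr2* stay between 149.7 and 307 per kb.

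EGR1, EGR2 and EGR3 are zinc finger transcription factors that bind closely similar GC-rich sites. *Egr1* lies on chromosome 18 and was tested with 2 protein-coding transcripts with the same coding length of 1599 bases. Egr1-202 (ENSMUST00000165033.1, 34861207 to 34864956, + strand, GRCm38) had a level of 4361 normalised estimated counts, 88.3% of the gene's level. Egr1-201 (ENSMUST00000064795.5) starts 1384 bases further upstream, has a first exon of 1964 bases and had a level of 575 normalised estimated counts.

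The spreads of the *Egr1* transcripts were 1.07 log2 units for Egr1-202 and 1.18 for Egr1-201, wider than 99.9% and 99.3% of the 1000 transcripts nearest to each in level. The median of those neighbours was 0.16 log2 units for Egr1-202. By these variances, KD and WT could differ at most 3.61-fold in mean level of Egr1-202 and 4.14-fold in that of Egr1-201. The technical variance that Sleuth estimated was 0.069% and 0.86% of these variances. Technical variance is not that of assigning reads to transcripts only. It was 0.20% of the variance for *Btg2*, whose only tested transcript shares no word of 31 bases with another tested transcript. How it divides between counting and read assignment was not tested. Only 28 of the words of 31 bases in Egr1-202 occur in no other tested transcript, against 1476 in Egr1-201, and every word of either is absent from other genes.

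*Egr2* on chromosome 10 had 3 tested transcripts. Egr2-201 (ENSMUST00000048289.13, 67537869 to 67542188, + strand) carried 88.8% of the gene's level, with 389.5 normalised estimated counts. Its spread of 1.02 log2 units was wider than 98.9% of transcripts of like level, and its KD and WT means could differ at most 3.40-fold. Egr2-203, which starts 814 bases downstream in what is the intron of Egr2-201, had a level of 45.1 normalised estimated counts and a spread of 1.40 log2 units. Egr2-202 had a level of 4.12 normalised estimated counts. For these minor transcripts the estimated technical variance was 56.1% and 43.5% of the variance over the libraries.

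*Egr3* on chromosome 14 had a much narrower spread than its relatives. Egr3-204 (ENSMUST00000225200.1, 70077314 to 70082550, + strand) carried 91.5% of the gene's level, with 729.8 normalised estimated counts and a spread of 0.27 log2 units. That was wider than 62.6% of transcripts of like level, and KD and WT could differ at most 1.38-fold. Egr3-201, which ends 2595 bases earlier and keeps a 3′UTR of 50 bases, had a level of 67.4 normalised estimated counts and a spread of 0.11 log2 units, wider than only 4.0% of its neighbours. Technical variance, which is not that of read assignment only, was estimated at 449.6% of the variance of Egr3-201 over the libraries. The limit was thus lower for *Egr3* than for *Egr1* and *Egr2*, and whether their changes differ was not tested.

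**Figure D2:**
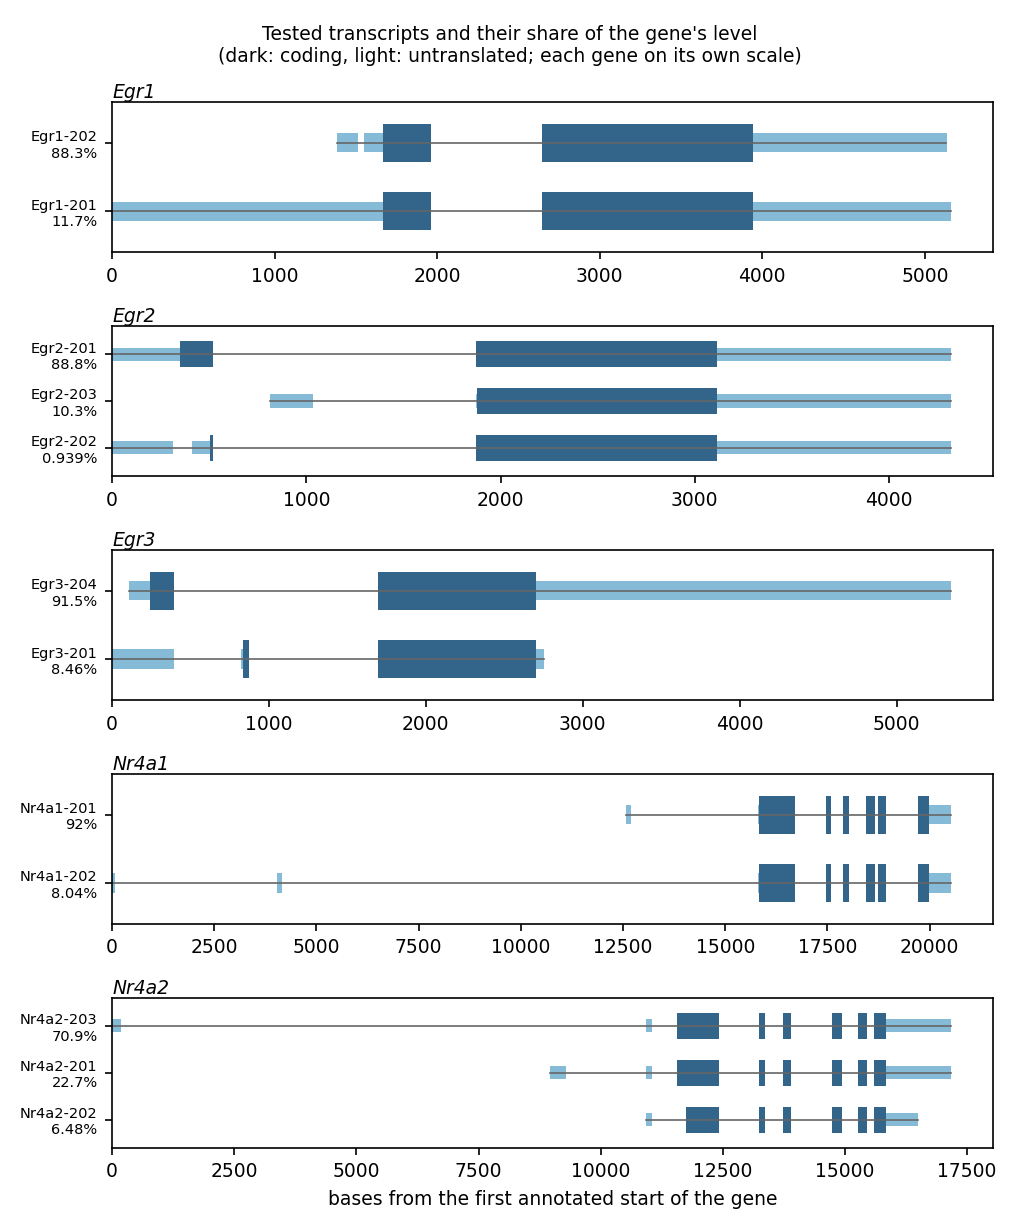
Exons of the tested transcripts of the genes with several, in bases from the first annotated start of the gene, with coding parts dark, untranslated parts light and each transcript's share of the gene's level as a percentage. In each gene 1 transcript holds most of the level, from 70.9% in *Nr4a2* to 92.0% in *Nr4a1*.

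NR4A1 and NR4A2 are orphan nuclear receptors that bind DNA without a known natural ligand. *Nr4a1* on chromosome 15 was mostly Nr4a1-201 (ENSMUST00000023779.7, 101266846 to 101274795, + strand), with 6839.7 normalised estimated counts or 92.0% of the gene's level. Its spread was 0.39 log2 units, wider than 91.3% of transcripts of like level, with a limit of 1.60-fold between KD and WT. Nr4a1-202 starts 12577 bases upstream and has the same coding length of 1803 bases. It had a level of 598 normalised estimated counts, a spread of 0.34 log2 units and a limit of 0.58 log2 units between KD and WT.

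*Nr4a2* on chromosome 2 was divided between 3 transcripts that start at different places. Nr4a2-203 (ENSMUST00000112629.7, 57106830 to 57124003, − strand) carried 70.9% of the gene's level, with 731 normalised estimated counts. Its spread of 0.13 log2 units was wider than only 25.8% of transcripts of like level, and KD and WT could differ at most 1.17-fold. Technical variance was estimated at 98.5% of the variance over the libraries. Nr4a2-201, which starts 8965 bases further downstream, had a level of 234 normalised estimated counts and a spread of 0.55 log2 units, with a limit of 1.94-fold. Nr4a2-202 had 66.8 normalised estimated counts, a spread of 0.82 log2 units and a technical variance of 60.2% of the whole.

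SRF, the factor that binds CArG boxes in immediate-early and actin cytoskeleton genes, was the steadiest member. Srf-201 (ENSMUST00000015749.6, chromosome 17, 46548329 to 46556175, − strand) had a level of 2315 normalised estimated counts. Its spread of 0.073 log2 units was wider than only 12.4% of transcripts of like level, whose median was 0.17 log2 units. KD and WT means of *Srf* could thus differ by no more than 1.09-fold in either direction.

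The remaining members each had 1 tested transcript. *Btg2* on chromosome 1 (ENSMUST00000020692.6, 134075170 to 134079120, − strand), an antiproliferative factor that binds the CCR4-NOT deadenylase complex, had a level of 3683 normalised estimated counts. Its spread of 0.52 log2 units was wider than 97.1% of transcripts of like level, with a limit of 1.87-fold. *Ier2* on chromosome 8 (ENSMUST00000060427.4, 84661331 to 84662852, − strand), an intronless gene for a nuclear protein, had a level of 3542 normalised estimated counts. The spread of *Ier2* was 0.44 log2 units, wider than 94.9% of its neighbours, with a limit of 1.70-fold.

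*Ier3* on chromosome 17 (ENSMUST00000003635.6, 35821684 to 35822923, + strand) had a level of 6512 normalised estimated counts, a spread of 0.22 log2 units and a limit of 1.30-fold. *Ier5* on chromosome 1 (ENSMUST00000055322.5, 155096361 to 155099636, − strand), an intronless gene whose product acts on the heat shock factor HSF1, had 5897 normalised estimated counts, a spread of 0.18 log2 units and a limit of 1.24-fold. Both were close to the middle of transcripts of like level, wider than 63.1% of them for *Ier3* and 53.8% for *Ier5*.

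**Figure D3:**
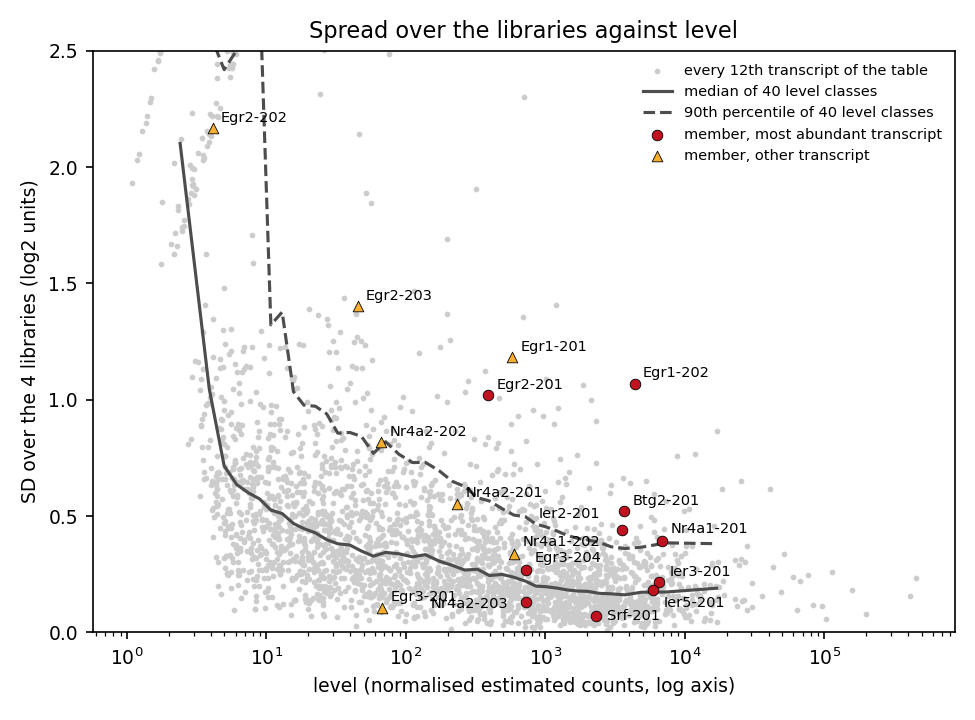
Spread over the 4 libraries in log2 units against level in normalised estimated counts on a log axis, for member transcripts (red circles, the most abundant of a gene, and yellow triangles, the others) and every 12th transcript of the table (grey), with lines for the median and the 90th percentile. The axis ends at 2.5 log2 units, and some transcripts of low level lie above it. The *Egr1* and *Egr2* transcripts stand near or above 1 log2 unit, while Srf-201 lies at 0.073, below the median line.

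Counted over all 17 member transcripts, 14 had a spread above the median of the 1000 transcripts nearest in level and 8 above their 90th percentile. The median member transcript was wider than 85.6% of its neighbours. Over the most abundant transcript of each gene, 8 of 10 were above the median and 5 above the 90th percentile, namely those of *Egr1*, *Egr2*, *Btg2*, *Ier2* and *Nr4a1*. The limit between KD and WT for that transcript was under 1.5-fold in 5 of these 10 genes and at least 3-fold in 2. It does not bound a gene's other transcripts, such as Nr4a2-201 with 1.94-fold beside Nr4a2-203 with 1.17-fold. Among 12029 genes whose most abundant transcript had at least 100 normalised estimated counts, 81.4% had a limit under 1.5-fold and 0.781% one of at least 3-fold. *Egr1* was chosen on these same libraries, so its own place in these counts is set by that choice. This covers its transcripts, wider than 99.9% and 99.3% of their neighbours, and its limit of 3.61-fold among the 2 of at least 3-fold. Transcripts of 1 gene are not independent members, so the counts over transcripts weigh genes with several more heavily. All these counts are a description of genes chosen with earlier results of these data known.

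For comparison, 41 other genes were listed, namely immediate-early and serum response genes and cofactors of SRF and EGR. Of these, 39 were in the table and 38 could be ranked per kb. The median level of these 38 was 1279 normalised estimated counts per kb, against 1454 for the members. *Plk2*, *Ptgs2* and *Cyr61* were the highest, with 11659, 9145 and 8401 per kb. *Arc*, *Nr4a3* and *Klf2* were the lowest, with 9.60, 63.5 and 114 per kb. *Nr4a3*, the third NR4A receptor, was thus below both *Nr4a1* and *Nr4a2* in level per kb.

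The spread of the most abundant transcript was wider than the median of like transcripts for 20 of the 38 genes and above the 90th percentile for 9. *Fos* and *Fosb*, which each encode a subunit of AP-1, had the widest spreads of the list with 1.36 and 1.10 log2 units. *Arc* followed with 0.87, and its technical variance exceeded its variance over the libraries. The narrowest were *Elk3* with 0.039, *Klf10* with 0.067 and *Elk1* with 0.080 log2 units. *Elk1* and *Elk3* encode ETS factors that join SRF on promoters, and the limits of their most abundant transcripts were 1.10-fold and 1.05-fold. The other transcripts of *Elk3*, with 18.4% and 3.72% of its level, had limits of 1.22-fold and 1.61-fold. *Mkl1* and *Mkl2*, the actin-regulated SRF coactivators, had limits of 1.34-fold and 1.53-fold for the most abundant transcript of each. The EGR corepressors *Nab1* and *Nab2* had limits of 1.17-fold and 1.22-fold, also for the most abundant transcript of each. The other transcript of *Nab1*, with 45.0% of its level, had a limit of 1.37-fold. That of *Nab2*, with 49.5%, had one of 1.21-fold. *Fosl1*, whose transcript version is not in the annotation, had a spread of 0.33 log2 units. *Egr4* and *Atf3* were not analysed here.

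**Figure D4:**
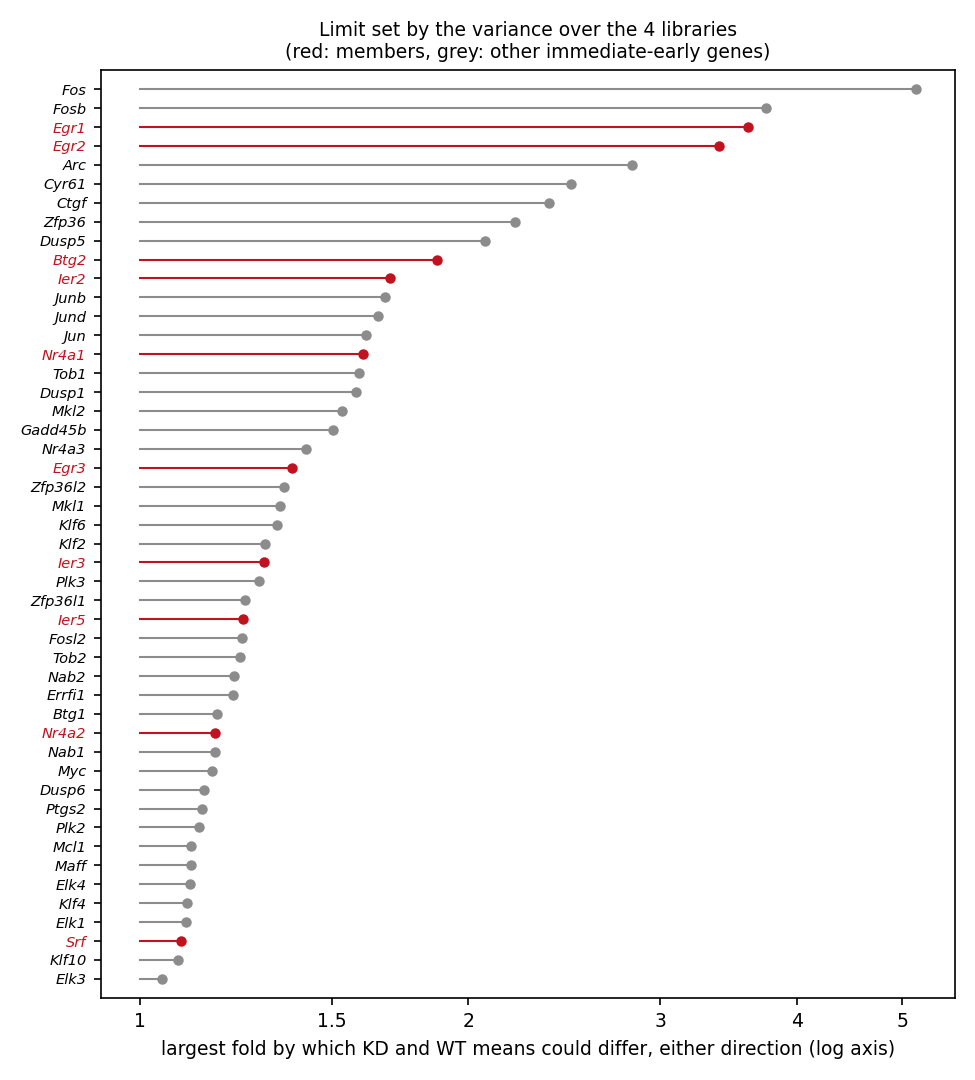
Largest fold by which the KD and WT means of a gene's most abundant transcript could differ in either direction, on a log axis. The 10 members are in red and the 38 other listed genes, which include SRF and EGR cofactors, in grey. *Egr1* and *Egr2* lie at 3.61-fold and 3.40-fold beside *Fos* and *Fosb*, and *Srf* at 1.09-fold near *Klf10* and *Elk3*.

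Promoter sequences from RefSeq (GRCm38.p6, 250 bases before to 50 after a start site) were matched by symbol for 7 of the 10 genes, with 11 start sites. *Egr1*, *Egr3* and *Ier2* had no entry. A CArG box on either strand was found at *Srf* and *Egr2*, 2 of the 7 genes, and in 1.81% of 27025 genes with a promoter. The members' promoters held 54% to 81.7% G and C, against a median of 52.7% over 32851 promoters, and the shares given are not adjusted for this or for the 5 start sites of *Egr2*. The palindromic CRE, TGACGTCA, was found at *Btg2* and in 2.03% of genes. Its half-site CGTCA, which is part of the palindrome and was searched on both strands, was found in 5 of the 7 genes and in 23.0% of all, and in 7 of their 11 promoters and 20.8% of all promoters. The motif GGGCGG was found in all 7 genes and in 10324 of the 27025, and in 8 of the 11 promoters and 35.7% of all promoters. The EGR motif GCGTGGGCG was found in none of the 7 and in 0.707% of genes, and its variant GCGGGGGCG at *Nr4a1* and *Srf* and in 3.31% of genes.

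The stretches from 200 to 31 bases before a start site are shown for *Srf* and *Egr2*, which hold a CArG box, for *Btg2*, which holds the palindromic CRE, and for *Nr4a1*, which holds half-sites of it. Capitals mark CArG boxes and CRE palindromes or half-sites on either strand, and the *Srf* stretch opens inside a half-site. *Srf* is given at chr17:46556193-46556362 on the − strand, *Egr2* at chr10:67537669-67537838 on the + strand, *Btg2* at chr1:134079186-134079355 on the − strand and *Nr4a1* at chr15:101266646-101266815 on the + strand.
Srf: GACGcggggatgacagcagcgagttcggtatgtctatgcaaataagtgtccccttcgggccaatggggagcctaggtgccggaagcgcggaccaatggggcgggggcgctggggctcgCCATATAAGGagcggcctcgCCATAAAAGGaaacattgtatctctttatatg
Egr2: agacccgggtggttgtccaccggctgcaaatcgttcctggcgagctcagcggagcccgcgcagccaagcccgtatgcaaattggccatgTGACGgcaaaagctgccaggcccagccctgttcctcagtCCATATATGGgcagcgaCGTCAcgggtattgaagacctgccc
Btg2: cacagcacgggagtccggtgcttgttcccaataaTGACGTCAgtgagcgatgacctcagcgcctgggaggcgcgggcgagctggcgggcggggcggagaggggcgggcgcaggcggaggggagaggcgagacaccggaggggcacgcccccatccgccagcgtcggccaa
Nr4a1: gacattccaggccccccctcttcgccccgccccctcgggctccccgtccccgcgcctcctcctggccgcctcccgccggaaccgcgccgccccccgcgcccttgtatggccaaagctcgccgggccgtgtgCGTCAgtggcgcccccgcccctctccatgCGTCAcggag

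*Srf* carries CArG boxes that begin 82 and 62 bases before its start site, and the *Egr2* start site shown, which is that of Egr2-201, carries one 72 bases before it with CRE half-sites 111 and 55 bases before it. *Btg2* carries the palindromic CRE 166 bases before its start site, and *Nr4a1* carries half-sites 233, 213, 69 and 40 bases before its own. Binding of any factor was not measured.

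**Figure D5:**
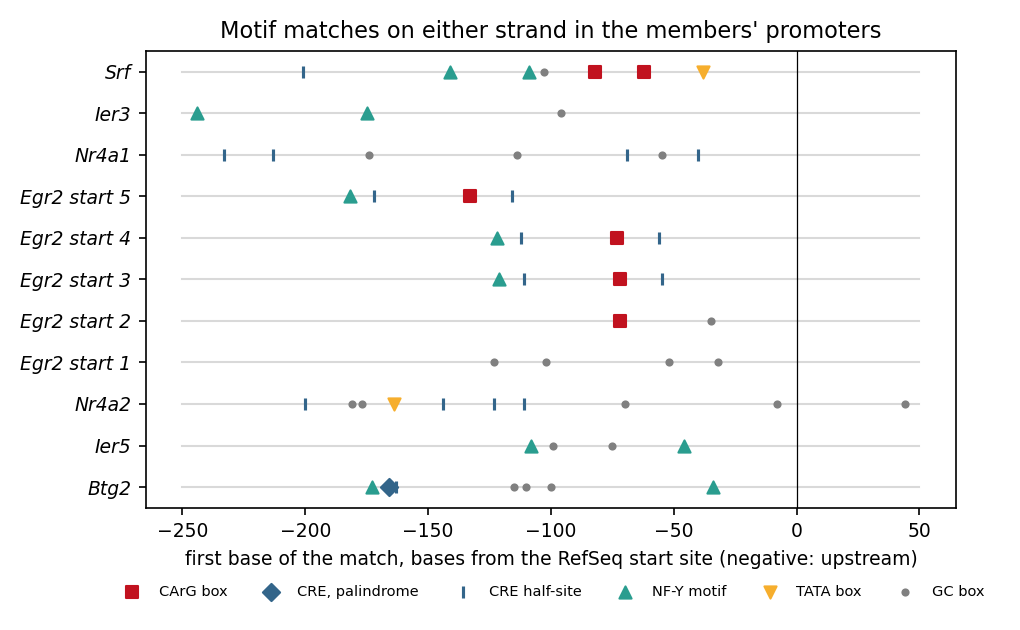
Position of motif matches on either strand in the members' RefSeq promoters, in bases from the start site. Shown are CArG boxes, CRE palindromes and half-sites, NF-Y motifs, GC boxes and, under the name TATA box, the word TATAAA. That word matched at *Nr4a2* and *Srf* only, on the strand opposite to the gene, so these are matches to the word only. CArG boxes lie at *Srf* and at 4 of the 5 *Egr2* start sites, between 133 and 62 bases upstream, and the windows of 3 *Egr2* start sites overlap and show the same box.

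The 3′UTRs were scanned for AU-rich words, which ZFP36 family proteins bind to bring about mRNA decay. The word ATTTA was found in the 3′UTR of the most abundant transcript of 9 of 10 members, *Ier2* being the exception, and in 67.7% of 14000 protein-coding genes. The longer word TATTTAT was found in 4 members, *Ier3*, *Btg2*, *Nr4a2* and *Srf*, and in 29.3% of genes. The still longer TTATTTATT was found in 1 member, *Srf*, and in 8.25% of genes. The members held a median of 2.27 ATTTA words per kb of 3′UTR against 1.31 for all genes, and 8 of the 10 lay above the latter. *Ier3* had the densest 3′UTR with 8.16 per kb, above 98.4% of genes, followed by *Nr4a1* with 5.52 per kb, above 94.8%.

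A run of 28 bases around a TATTTAT word is shown for *Ier3*, the member with the most such words, and for *Srf*, with ATTTA in capitals. The run begins at base 179 of the *Ier3* 3′UTR and at base 42 of the *Srf* 3′UTR.
Ier3: taatATTTAtgtATTTAtgtatatcctc
Srf: acttATTTAttgttgccttttcacggtt

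The *Ier3* 3′UTR holds 4 TATTTAT words in 613 bases, and the *Srf* 3′UTR holds 1 in 754 bases. *Egr1* held 2 ATTTA words in the 1188 bases of the Egr1-202 3′UTR and none of the longer word. In *Egr3*, the short isoform Egr3-201 lacks the 7 ATTTA words that the 2645 bases of the Egr3-204 3′UTR carry.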

How the data were processed

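RNA-seq of 2 KD and 2 WT libraries of polyadenylated RNA was grouped by the condition in the labels. The authors removed adapters with BBDuk, quantified transcripts with Kallisto and compared the groups with Sleuth, and the submitters' processing notes name GRCm38, bcl2fastq 2.17 and HISAT2. The mean that the authors deposited for each transcript is on the natural log scale, taken of library-size-normalised estimated counts with 0.5 added, and is pooled over the 4 libraries. The deposited variances are on the same scale. The deposited table also holds the effects, standard errors, statistics, p-values and q-values of the authors' comparison, and a gene table holds their p-values by gene. These columns were not used. The planned count model needs counts of single libraries, which were not analysed here, so it could not be fitted and no test was made. The depth of the libraries is not known from the columns used, and no interval for counting error is given.

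Levels were computed as the exponential of the mean minus 0.5, divided by transcript length in GENCODE M21 (98.6% of transcripts matched with the same version, all 17 of the members) and added up within each gene. The limit between KD and WT was the exponential of the square root of 3 times the variance, the value reached when the 2 libraries of each group are equal. It takes the deposited variance as a sample variance, was chosen after the data were seen, and can lie close to the difference itself where replicates agree closely. On simulated data it was checked for its computation only, not for whether the deposited variance is a sample variance. Spread was ranked among the 1000 transcripts nearest in mean level. Words of 31 bases were compared, in both orientations, with all M21 transcripts. Motifs were searched in RefSeq promoters, and AU-rich words in 3′UTRs of at least 50 bases. The members, the list of other immediate-early genes and cofactors, and the motifs were chosen with earlier results of these data known. All members are named, with the 3 highest and 3 lowest of that list in level per kb and in spread, and its SRF and EGR cofactors, chosen after their values were seen. Python 3.11.15, pandas 2.3.3 and numpy 2.4.6 were used.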

Additional observations from a re-analysis of the deposited data

How the results depend on the processing

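No paired analysis was possible because the columns used are pooled over the 4 libraries and carry no replicate number. For the same reason the leave-one-out fits, the other normalisation and the fits with another filter on low counts were not run. The median level per kb of the members was 1454 normalised estimated counts, and it was 1454, 1389.5 and 1560.1 when nothing was subtracted, when only the most abundant transcript of a gene was used and when 200 bases were taken off each length. The number of member transcripts with a spread above the median of their neighbours was 14. It was also 14 with 300 neighbours and with the technical variance taken away. It was 11 of 13 when transcripts under 100 normalised estimated counts were left out. The number above the 90th percentile of their neighbours was 8, and it was 7, 7 and 6 under these alternatives. Ranked among protein-coding genes only, the median member lay above 80.6% of genes in level per kb, against 85.7% of all genes. *Nr4a2*, *Egr3* and *Egr2* then fell below the median gene. The levels per kb of *Egr3* and *Nr4a2* moved by more than their spread when only the most abundant transcript was used, and the step between them then fell within their spread. The levels of *Ier3* and *Srf* moved by more than their spread with the shorter length. For the 4 member transcripts under 100 normalised estimated counts, the estimated technical variance was between 43.5% and 449.6% of the variance over the libraries.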
